A study of Mus musculus with 9 samples.

Results

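Integrins are surface receptors made of 1 α chain and 1 β chain that attach a cell to its matrix or to other cells. In macrophages the β2 integrins, made only by leukocytes, bind complement fragments, fibrinogen and Icam1, while the β1 and αv integrins bind fibronectin, Vcam1 and vitronectin. Icam1 is an immunoglobulin-family surface protein that serves as their counter-receptor and, in many cells, as a textbook target of NF-κB. The genes described here are 9 integrin subunit genes and Icam1, a total of 10 genes taken by symbol. They are the β2 family (Itgam, Itgax, Itgal and the shared β chain Itgb2), the β1 and αv family (Itga4, Itga5, Itgav, Itgb1 and Itgb3), and Icam1. All 10 were found among the 55401 genes of the table, and 9 of 10 had a mean of at least 1 TPM (a transcript level scaled to gene length and to the library's total) over the 9 samples and were tested. Itgb3 did not reach that level.

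The RNA came from RAW264.7 cells, a macrophage line of wild-type genotype derived from tumours that Abelson murine leukemia virus induced in a male mouse. Cells were given the solvent DMSO, DMSO with lipopolysaccharide (LPS, the bacterial wall component that activates macrophages through Tlr4) or LPS with skatole (Ska, a tryptophan-derived indole), with 3 samples in each group numbered 5, 6 and 7. The labels give 24 h of treatment while the study's methods section gives a longer time, the label of the LPS + Ska group names no DMSO, and the skatole dose of these samples is not given in the sources used here. No source says that the 3 samples of a group were separate cultures, so the p-values measure the spread between these samples, which may be technical.

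TPM divides by transcript length, so levels can be compared between genes, but it keeps no sequencing depth, and the depth behind each value is unknown. The columns summed to 999895 to 1000145 TPM and held 12498 to 13012 genes at 1 TPM or more. The LPS and LPS + Ska columns were tied. In both groups the replicate 5 column was the mean of the replicate 6 and replicate 7 columns, in 17950 of 17950 and 17658 of 17658 genes with all columns above 0 and within 1e-05 TPM, while no DMSO column matched in more than 0.0636% of genes. A gene thus has no more than 2 free values in such a group, and n = 3 below counts columns. Tests were also run on 2 values recovered from each tied group, and their adjusted p is given where it differs in call. These values were placed midway between the replicate 5 column and each of the other 2. Itgam in LPS + Ska thus had 75.3 and 86.1 TPM, beside columns of 69.9 and 91.5 TPM. That placement is an assumption the sources do not settle, and it gives a smaller spread than the replicate 6 and 7 columns. All 10 macrophage identity genes (Adgre1, Cd68, Csf1r, Lyz2 and others) had a mean of at least 1 TPM in every group, with summed levels of 12696 to 13670 TPM in DMSO, 7710 to 8102 TPM in LPS and 14200 to 14457 TPM in LPS + Ska. The 7 osteoclast markers summed to 69.2 to 81.2, 117 to 129 and 96.5 to 101 TPM, with Calcr at 0 in every column. That list was split. Acp5 (11.4 to 17.0, 44.0 to 45.7 and 39.3 to 47.7 TPM), Atp6v0d2 (3.36 to 4.63, 23.3 to 26.6 and 9.33 to 14.8 TPM) and the low Ctsk were higher after LPS. Dcstamp overlapped between DMSO and LPS (43.3 to 55.2 and 45.9 to 52.4 TPM) and was 40.0 to 41.4 TPM in LPS + Ska. Ocstamp went down, at means of 4.54, 2.33 and 1.32 TPM. Of 6 T and NK cell markers 5 were at 0 in every column, and the sixth, the kinase Lck, averaged 1.72, 4.61 and 2.85 TPM. The macrophage and osteoclast sums and Lck moved with the groups, and their part in the results below was not tested. Nos2, the inducible nitric oxide synthase and a standard LPS response gene, was at 0 in every DMSO column, 36.2 to 38.8 TPM in LPS and 25.0 to 32.1 TPM in LPS + Ska.

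In the mm10 mouse genome (GENCODE M21 annotation) the β2 family α chains lie together on chromosome 7, with Itgal at chr7:127296260-127335138, Itgam at chr7:128062640-128118491 and Itgax at chr7:128129547-128150657, each on the plus strand. Itgb2 lies at chr10:77530252-77565708. Itga4 and Itgav share chromosome 2, at chr2:79255426-79333123 and chr2:83724397-83806916. Itga5 is at chr15:103344286-103366763 on the minus strand, Itgb1 at chr8:128685654-128733200, Itgb3 at chr11:104608000-104670476 and Icam1 at chr9:21015985-21028817. All 10 are protein coding, and their longest transcripts have between 7 exons (Icam1) and 31 exons (Itgal and Itga5). Exons of 4 members overlap another gene, and the counting is not stated to use strand, so reads of Icam1 and Gm47079, Itga4 and Cerkl, and Itgav and Gm13684 on the opposite strand, and of Itgam and Gm49368 on the same strand, could not be told apart. Those neighbours were low, at mean levels of 0.356 to 2.78 TPM.

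RefSeq (GRCm38.p6) promoter sequence was at hand for 7 of the 10 genes, all but Itgal, Itgb2 and Itgb3. The 250 bases before the start site are shown for Icam1, the ligand, and for Itgax and Itgam, the α chains with the highest folds between LPS + Ska and LPS. Capitals mark the match to a motif that was searched on both strands and chosen with the sequences in view: the NF-κB-type palindrome GGAANTTCC in Icam1, the AP-1 site TGANTCA in Itgax and the PU.1 core AGGAAG in Itgam. The windows are chr9:21015690-21015939 for Icam1, chr7:128129300-128129549 for Itgax and chr7:128062390-128062639 for Itgam, all on the plus strand and written 5′ to 3′.
Icam1: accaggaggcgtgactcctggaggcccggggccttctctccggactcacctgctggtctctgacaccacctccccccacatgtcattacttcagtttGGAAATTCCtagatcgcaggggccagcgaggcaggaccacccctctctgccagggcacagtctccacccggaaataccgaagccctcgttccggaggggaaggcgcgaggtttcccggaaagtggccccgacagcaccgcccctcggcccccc
Itgax: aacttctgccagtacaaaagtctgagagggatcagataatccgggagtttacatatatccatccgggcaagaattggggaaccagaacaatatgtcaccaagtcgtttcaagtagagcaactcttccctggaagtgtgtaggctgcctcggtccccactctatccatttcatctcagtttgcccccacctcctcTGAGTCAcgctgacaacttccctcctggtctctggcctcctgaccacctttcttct
Itgam: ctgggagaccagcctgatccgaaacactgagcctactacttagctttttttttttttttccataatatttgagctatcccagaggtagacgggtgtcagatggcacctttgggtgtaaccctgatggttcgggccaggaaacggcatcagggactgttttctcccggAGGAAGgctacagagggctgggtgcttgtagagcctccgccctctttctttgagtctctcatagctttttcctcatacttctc
Distances are counted from the RefSeq start, which differs from the GENCODE start given above for Icam1 and Itgax. The palindrome in Icam1 lies 153 to 145 bases before the start and reads on both strands. It occurs in 0.813% of all 32851 promoter windows. The AP-1 site of Itgax, 56 to 50 bases before the start, occurs in 6.75% of windows. The PU.1 core of Itgam, 83 to 78 bases before the start, occurs in 29.5% of windows and also in those of Itgav and Itgb1. These are matches of letters and carry no measure of binding.

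Itgam, the α chain of the complement receptor Mac-1 (CD11b), had levels of 66.4, 66.1 and 65.5 TPM in DMSO, 61.2, 63.5 and 58.9 TPM in LPS and 80.7, 91.5 and 69.9 TPM in LPS + Ska, in the order of replicates 5, 6 and 7. Every LPS + Ska column was above every column of the other groups, and every LPS column was below DMSO. Itgax, the α chain of CD11c/CD18 and the usual marker of dendritic cells, had levels of 4.22, 3.08 and 3.65 TPM in DMSO, 0.910, 1.15 and 0.671 TPM in LPS and 2.16, 2.82 and 1.496 TPM in LPS + Ska. Its groups did not overlap either, with LPS lowest and LPS + Ska between LPS and DMSO. It was the lowest of the tested members, above only 10.97% of all tested genes by its mean level. Its LPS mean was below 1 TPM, so it passed that minimum only through DMSO and LPS + Ska.

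Itgal, the α chain of LFA-1 and the classical receptor for Icam1, had levels of 15.4, 15.7 and 17.4 TPM in DMSO, 6.85, 7.24 and 6.47 TPM in LPS and 7.68, 8.09 and 7.27 TPM in LPS + Ska. Both LPS-treated groups were below 10 TPM in every column and stood close to each other. Itgb2, the β chain that all 3 α chains need to reach the surface, had levels of 167, 163 and 172 TPM in DMSO, 117, 112 and 122 TPM in LPS and 103, 112 and 95.2 TPM in LPS + Ska. DMSO was highest, and the LPS + Ska columns lay below the LPS columns with the replicate 6 column just under the lowest of them. Over the β2 family, then, Itgal, Itgax and Itgb2 were each lower in both LPS-treated groups than in DMSO, while Itgam was highest in LPS + Ska.

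Itga4, the α chain that binds Vcam1 and fibronectin, was the most abundant member in every group and was above 94.9% of all tested genes. Its levels were 231, 253 and 275 TPM in DMSO, 253, 247 and 258 TPM in LPS and 177, 212 and 141 TPM in LPS + Ska, so that DMSO and LPS overlapped and LPS + Ska lay below both. Itga5, the α chain of the main fibronectin receptor, had levels of 64.8, 62.3 and 72.8 TPM, then 51.6, 51.9 and 51.4 TPM, then 43.4, 44.8 and 41.9 TPM in the same order of groups. It stepped down from DMSO to LPS to LPS + Ska with no overlap.

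Itgav, the α chain of the vitronectin receptors, had levels of 39.1, 39.2 and 42.4 TPM in DMSO, 55.1, 52.9 and 57.2 TPM in LPS and 48.1, 54.4 and 41.8 TPM in LPS + Ska. LPS was above DMSO in every column, and LPS + Ska overlapped with both. Itgb1, the β chain that pairs with Itga4, Itga5 and Itgav, had levels of 93.4, 99.5 and 114 TPM in DMSO, 101, 96.1 and 105 TPM in LPS and 96.9, 110.0 and 83.8 TPM in LPS + Ska, with all groups overlapping. Itgb3, the β chain of the αvβ3 receptor of osteoclasts and platelets, was listed at 0, 0.0449 and 0.0399 TPM in DMSO, at 0.00805, 0.0242 and 0 TPM in LPS and at 0 in every LPS + Ska column. No comparison was made for it at this level.

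Icam1 had levels of 96.7, 98.4 and 109 TPM in DMSO, 89.2, 82.9 and 95.5 TPM in LPS and 75.5, 70.1 and 80.9 TPM in LPS + Ska. The groups did not overlap, and each step was downward. No LPS column was above the lowest DMSO column.

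**Figure D1:**
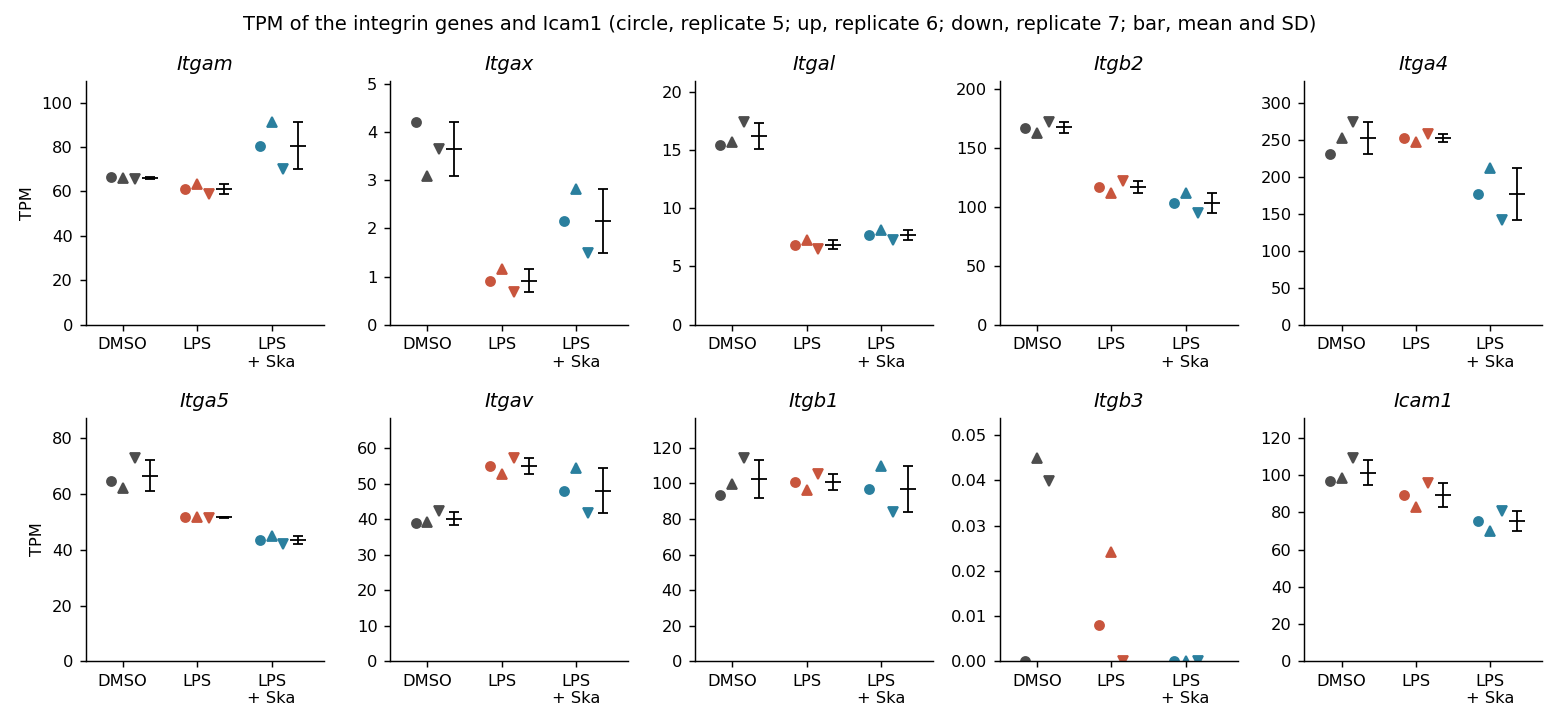
Level of each of the 10 genes in TPM (vertical axis, from 0, a scale of its own per panel) in the DMSO, LPS and LPS + Ska groups; symbols are the 3 columns of a group (circle, replicate 5; up triangle, 6; down triangle, 7) and bars their mean ± SD, not drawn for Itgb3. Itgax goes from a mean of 3.65 TPM in DMSO to 0.910 TPM in LPS and stands at 2.16 TPM in LPS + Ska, while Itgam is highest in LPS + Ska at 80.7 TPM.

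In order of level, DMSO ran Itga4, Itgb2, Itgb1, Icam1, Itga5, Itgam, Itgav, Itgal, Itgax and Itgb3. The columns of Itgb1 and Icam1, and of Itga5 and Itgam, overlapped, so these neighbours did not differ beyond their spread. In LPS the order was Itga4, Itgb2, Itgb1, Icam1, Itgam, Itgav, Itga5, Itgal, Itgax and Itgb3, with no overlap between neighbours. In LPS + Ska, Itga4 led again, followed by Itgb2, Itgb1, Itgam and Icam1. There Itgb2 overlapped with Itgb1, Itgb1 with Itgam and Itgam with Icam1, while Icam1 did not overlap with Itgav. Itgav and Itga5 overlapped too, and Itgal, Itgax and Itgb3 followed.

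The comparison of LPS with DMSO asks what activation by LPS did to these genes. Itgax and Itgal fell, to a mean of 0.249 and 0.424 times their DMSO level, and no member rose past the fold limit. Itgax passed the 1 TPM minimum only through DMSO and LPS + Ska, so its fall is not separate from that selection. Itgax averaged 3.65 ± 0.568 TPM (SD, n = 3) in DMSO and 0.910 ± 0.239 TPM in LPS, and Itgal 16.2 ± 1.09 TPM and 6.85 ± 0.382 TPM. A member was called where limma on log2(TPM + 1) gave a Benjamini-Hochberg adjusted p below 0.05 over all 12819 tested genes and a fold above 1.5 or below 0.67. By that rule 0 of 9 were higher and 2 of 9 lower, beside 12.7% of all tested genes higher and 20% lower, and 32.7% in either direction. At an unadjusted p below 0.05 in limma, 1 member was higher (Itgav) and 5 were lower. The share of all tested genes at that limit was not counted. At adjusted p alone 5 members passed, beside 60.3% of all tested genes, and the unadjusted share is no lower than this. With recovered values 2 were called, beside 32.5%, and with median-ratio scaling, which gives every column the same median ratio to the average column, 2 were called, beside 32%. The median of the 9 log2 fold changes was -0.18, against -0.0667 over all tested genes.

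On the log2(TPM + 1) scale, which understates the change of low genes, the limma log2 fold change of Itgax was -1.28 (SE 0.19, 95% interval -1.71 to -0.86, adjusted p = 0.000321) and that of Itgal was -1.13 (SE 0.09, interval -1.33 to -0.92, adjusted p = 7.63e-06). Itgb2, the β chain of both, passed the p threshold but not the fold limit, at -0.52 (SE 0.07, limma adjusted p = 0.000134), and so did Itga5 at -0.36 (SE 0.07, adjusted p = 0.00134). Itgav passed the p threshold in the other direction, at 0.44 (SE 0.09, limma adjusted p = 0.00236). Icam1 missed it, at -0.18 (interval -0.36 to -0.01, limma adjusted p = 0.0677), as did Itgam at -0.11 (interval -0.31 to 0.09, adjusted p = 0.316). The intervals of Itga4 (-0.28 to 0.29) and Itgb1 (-0.26 to 0.21) held 0 and reached neither fold limit. The groups did not overlap in 7 of the 9 members, beside 68.9% of all tested genes.

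The comparison of LPS + Ska with LPS asks what skatole did to LPS-treated cells. Itgax rose, to a mean of 2.37 times its LPS level (0.910 ± 0.239 to 2.16 ± 0.660 TPM, SD, n = 3), and no member fell past the fold limit. Itgax passed the 1 TPM minimum only through DMSO and LPS + Ska, so its rise is not separate from that selection. Itgam was 1.32 times its LPS level (61.2 ± 2.31 to 80.7 ± 10.8 TPM) and Itga4 was 0.699 times (253 ± 5.37 to 177 ± 35.3 TPM), both past the p threshold but inside the fold limits. By the rule above 1 of 9 members was higher and 0 of 9 lower, beside 3.35% of all tested genes higher and 6.14% lower, and 9.49% in either direction. At an unadjusted p below 0.05 in limma, 2 members were higher and 4 were lower. The share of all tested genes at that limit was not counted. At adjusted p alone 5 members passed, beside 28.6% of all tested genes, and the unadjusted share is no lower than this. With recovered values 1 was called, beside 7.82%, and with median-ratio scaling 1, beside 8.85%. The median of the 9 was -0.18, against -0.0957 over all tested genes.

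The limma log2 fold change of Itgax was 0.71 (SE 0.19, interval 0.28 to 1.14, adjusted p = 0.0219, and 0.0470 with recovered values). The call was near the threshold. With no TPM minimum the limma adjusted p was 0.0403. The fold stayed past its limit without LPS replicate 5 (0.71, limma adjusted p = 0.0753), LPS replicate 7 (0.62, 0.0746) or LPS + Ska replicate 5 (0.70, 0.0823), where the adjusted p missed 0.05. The replicate 5 columns are the means of the other two, so leaving them out left the estimate nearly as it was and widened its error. Without LPS + Ska replicate 6, the highest column, both limits were missed (0.56, limma adjusted p = 0.0550). Itgam was at 0.39 (SE 0.09, limma adjusted p = 0.0113) and Itga4 at -0.53 (SE 0.13, adjusted p = 0.0132). Without LPS + Ska replicate 6, Itga4 passed the fold limit, at -0.67. Itga5, at -0.25 (SE 0.07), and Icam1, at -0.24 (SE 0.08), had limma adjusted p-values of 0.0241 and 0.0478 with the columns as deposited and 0.0897 and 0.0853 with recovered values, at the same log2 fold changes of -0.25 and -0.24. Icam1 stood at -0.14 with median-ratio scaling (limma adjusted p = 0.239). The intervals of Itgal (-0.06 to 0.35), Itgav (-0.40 to 0.01) and Itgb1 (-0.30 to 0.17) held 0, and Itgb2 was at -0.18 (interval -0.33 to -0.03, limma adjusted p = 0.0709). The groups did not overlap in 7 of the 9, beside 51.2% of all tested genes.

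The comparison of LPS + Ska with DMSO asks how far the treated cells stood from untreated ones, and Itgal, Itgb2 and Itga5 were lower in LPS + Ska. Their means were 0.475, 0.617 and 0.651 times the DMSO level (Itgal 16.2 ± 1.09 to 7.68 ± 0.412 TPM, Itgb2 168 ± 4.86 to 103 ± 8.19 TPM, Itga5 66.6 ± 5.48 to 43.4 ± 1.45 TPM, SD, n = 3). These comparisons share their DMSO and LPS + Ska columns with those above. By the rule 0 of 9 members were higher and 3 of 9 lower, beside 11.4% of all tested genes higher and 25.3% lower, and 36.7% in either direction. At an unadjusted p below 0.05 in limma 2 members were higher and 6 lower. The share of all tested genes at that limit was not counted. At adjusted p alone 8 members passed, beside 63.3% of all tested genes, and the unadjusted share is no lower than this. With recovered values 3 were called, beside 36.3%, and with median-ratio scaling 1, beside 34.8%. The median of the 9 was -0.53, against -0.175 over all tested genes. Median-ratio scaling moved that all-gene median to -0.00328, and the share of called genes that were higher from 31% to 49.6%. Relative to that shift, Itgal alone remained past the fold limit, at -0.80.

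The limma log2 fold change was -0.98 for Itgal (SE 0.09, adjusted p = 1.37e-05), -0.69 for Itgb2 (SE 0.07, adjusted p = 1.74e-05) and -0.61 for Itga5 (SE 0.07, adjusted p = 4.71e-05). With median-ratio scaling Itgb2 stood at -0.50 and Itga5 at -0.41, inside the fold limit and with limma adjusted p-values of 3.39e-05 and 0.000188. Without DMSO replicate 7, Itga5 stood at -0.54 and was not called. Itgax was at -0.57 (SE 0.19, limma adjusted p = 0.0242) and Itga4 at -0.53 (SE 0.13, adjusted p = 0.00476), both inside the fold limit. Without LPS + Ska replicate 6 both passed it, at -0.72 and -0.67, which made 5 members lower. Itgax also passed it without DMSO replicate 6 (-0.66) and with a pseudocount of 0.1 (-0.76), and Itga4 without DMSO replicate 5 (-0.59). Icam1 was at -0.42 (SE 0.08, limma adjusted p = 0.00115), and at -0.23 with median-ratio scaling (adjusted p = 0.0311). Itgam, at 0.28 (SE 0.09, limma adjusted p = 0.0198), and Itgav, at 0.24 (SE 0.09, adjusted p = 0.0401), were the members with a positive value among the columns as deposited, and median-ratio scaling gave 0.47 and 0.43 (limma adjusted p = 0.000583 and 0.000786), inside the fold limit. Without LPS + Ska replicate 6 they stood at 0.18 and 0.15, and over the left-out columns the limma adjusted p of Itgav ran from 0.00389 to 0.12. The columns of Itgav overlapped, and the interval of Itgb1 (-0.32 to 0.15) held 0. The groups did not overlap in 7 of the 9, beside 64.8% of all tested genes.

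**Figure D2:**
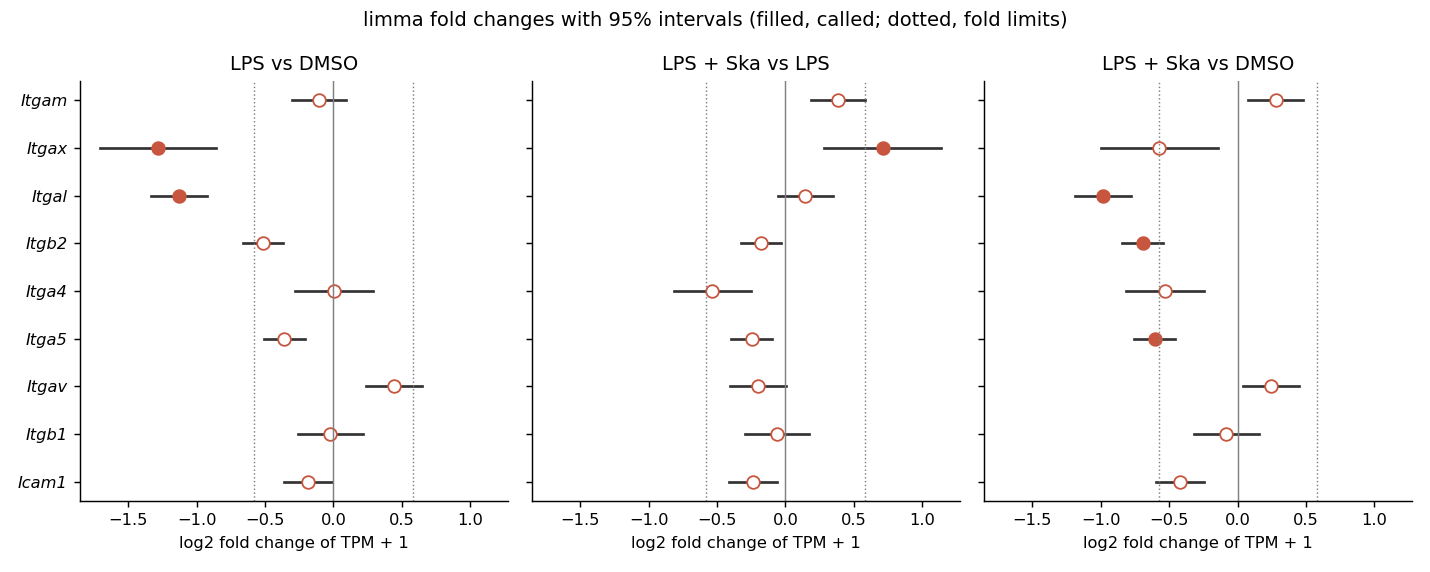
Log2 fold change of the 9 tested members on the log2(TPM + 1) scale (horizontal axis) in each comparison, with points for the limma estimate (filled where called) and bars for its 95% interval; dotted lines are the fold limits of 1.5 and 0.67. Itgax lies at -1.28 in LPS against DMSO and at 0.71 in LPS + Ska against LPS, and Itgal lies at -1.13 and 0.14.

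Since an α chain reaches the surface only with its β chain, the balance of their transcripts is given as ratios of TPM, as a description with no test. The 3 β2-partner α chains summed to 0.513, 0.522 and 0.502 times Itgb2 in DMSO, 0.590, 0.642 and 0.542 times in LPS and 0.876, 0.918 and 0.827 times in LPS + Ska. The groups did not overlap, and Itgam supplied most of each sum. Within the α chains, Itgam was 4.09 ± 0.294 times Itgal in DMSO (SD, n = 3), 8.94 ± 0.161 times in LPS and 10.5 ± 0.840 times in LPS + Ska. Against Itgax, Itgam was 18.4 ± 2.89 times higher in DMSO, 70.1 ± 16.5 times in LPS and 38.9 ± 7.24 times in LPS + Ska.

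For the β1 chain, Itga4, Itga5 and Itgav summed to 3.59, 3.56 and 3.42 times Itgb1 in DMSO, 3.57, 3.66 and 3.49 times in LPS and 2.77, 2.83 and 2.69 times in LPS + Ska. DMSO and LPS overlapped, and every LPS + Ska column was lower. Itga4 against Itgb1 moved the same way, at 2.48, 2.54 and 2.41, then 2.51, 2.57 and 2.46, then 1.82, 1.93 and 1.69. Itgb1 itself overlapped between all groups.

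**Figure D3:**
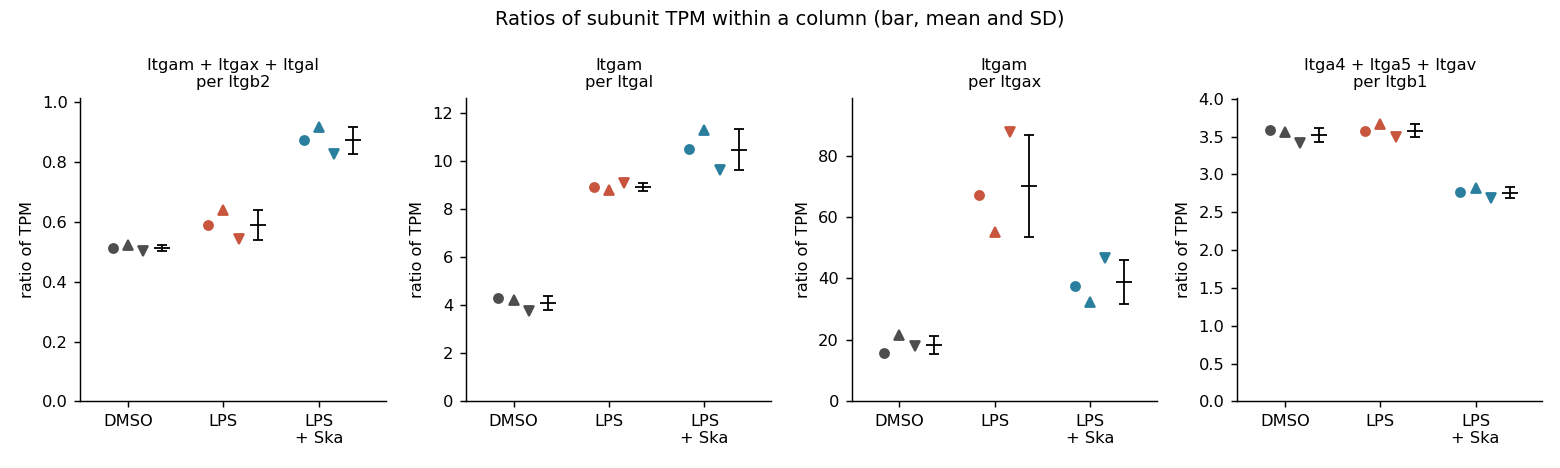
Ratios of α chain to β chain transcripts and between α chains (vertical axis, ratio of TPM values, from 0) in the DMSO, LPS and LPS + Ska groups, with symbols for the 3 columns and bars for the mean ± SD. The β2 ratio is highest in LPS + Ska at a mean of 0.873, and the β1 ratio is lowest there at 2.76.

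The genes that integrins work with were taken from lists of other subunits, ligands, activators, inhibitors, actin linkers, signalling proteins, membrane partners, trafficking proteins and other leukocyte adhesion receptors, in all 139 genes of which 91 were tested. In LPS against DMSO 13 were higher and 27 lower (44.0%, beside the 32.7% of all tested genes), with a median of -0.12. In LPS + Ska against LPS 1 was higher and 8 lower (9.89%, beside 9.49%), with a median of -0.08, and in LPS + Ska against DMSO 13 were higher and 35 lower (52.7%, beside 36.7%), with a median of -0.44. With median-ratio scaling the last of these counts became 18 higher and 21 lower, beside 17.3% and 17.5% of all tested genes.

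After LPS, Itgb5, a β chain that pairs with Itgav, fell from 26.6 ± 2.66 to 7.42 ± 0.154 TPM (log2 fold change -1.71), and was the 1 called gene of the 5 tested other subunits. Among 11 tested ligands Spp1 (osteopontin, a ligand of αv and α4 integrins) rose from 1569 ± 30.0 to 8380 ± 570 TPM and Edil3, a secreted αv ligand, from 0.811 ± 0.163 to 5.54 ± 0.0657 TPM, in a list of 2 higher and 3 lower. Edil3 passed the 1 TPM minimum only through the LPS-treated groups, so its rise is not separate from that selection. Among activators 2 rose and 3 fell, with the small GTPase Rap1b at 0.88 and kindlin-3 (Fermt3), which binds β chain tails, at -0.80. Of 6 inhibitors 4 fell and 1 rose, with Dok1 at -1.30 and filamin A (Flna) at -0.88. Of 12 linkers to actin 2 rose and 2 fell, the latter Ilk (-1.01) and vinculin (Vcl, -0.94). Beside these counts, 12.7% of all tested genes were called higher and 20% lower.

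Of 21 signalling genes 3 rose and 6 fell, led by the kinases Src (1.36, from 0.105 to 1.85 TPM) and Fgr (-1.30). Src passed the 1 TPM minimum only through the LPS-treated groups, so its rise is not separate from that selection. Of 10 membrane partners 2 rose and 3 fell, with the tetraspanins Cd53 at 1.17 and Cd81 at -1.01. Arf6 (-0.80) and Snx17 (-0.73), which act in the recycling of integrins, were the 2 of 11 trafficking genes that fell. Of 5 other adhesion receptors 1 rose and 3 fell, with Ninj1 at -1.18 and the selectin ligand Selplg at -1.12. The same shares of all tested genes, 12.7% higher and 20% lower, stand beside these counts.

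After skatole on top of LPS, the 9 called list genes were Rsu1, Parvb, Zyx, Tln2, Edil3, Icam5, Vav3 and Itga6, which fell, and Ninj1, which rose. Rsu1 and Parvb, both of the Ilk-parvin adhesion complex, fell from 93.6 ± 3.15 to 55.6 ± 3.96 TPM (limma adjusted p = 0.00015) and from 61.6 ± 0.658 to 37.1 ± 1.32 TPM (adjusted p = 0.00034). The focal adhesion protein zyxin (Zyx) fell from 22.4 ± 0.734 to 14.4 ± 1.72 TPM, but stood at -0.51 with median-ratio scaling, inside the fold limit. These were the 3 of 12 linkers that passed, beside 9.49% of all tested genes.

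Talin 2 (Tln2), of the proteins that switch integrins on, fell from 2.39 ± 0.000989 to 0.324 ± 0.0371 TPM, and the exchange factor Vav3 from 13.9 ± 0.259 to 6.98 ± 1.10 TPM. Tln2 in LPS + Ska was below the 1 TPM minimum and passed it only through the other groups. Edil3 fell from 5.54 ± 0.0657 to 1.65 ± 0.108 TPM and Icam5, a relative of Icam1, from 3.05 ± 0.145 to 1.19 ± 0.276 TPM. Itga6, the laminin receptor α chain, fell from 4.81 ± 0.731 to 2.86 ± 0.899 TPM, a call that was lost with recovered values (limma adjusted p = 0.066) and with median-ratio scaling (0.060). Ninj1, a homophilic adhesion protein, rose from 93.7 ± 1.30 to 146 ± 12.3 TPM (limma adjusted p = 0.00024), and its DMSO level was 213 ± 6.53 TPM. Parvb, Edil3 and Vav3 had each risen with LPS, at 0.63, 1.86 and 0.83 on the log2 scale. In the inhibitor, partner and trafficking lists limma called 0 genes, beside 9.49% of all tested genes. With median-ratio scaling 1 partner was called higher, beside 4.64% of all tested genes. At an unadjusted limma p below 0.05 those lists held 2, 5 and 4 genes, with the share of all tested genes at that limit not counted.

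Against DMSO, LPS + Ska cells had lower Itgb5 (-1.25), Itga6 (-0.66), Lamb2 (-0.94), Tln2 (-1.03), Dok1 (-1.28), Sipa1 (-0.95), Ilk (-1.37), Vcl (-1.36), Fgr (-1.12), Gga3 (-0.71), Snx17 (-0.68), Selplg (-0.86) and Cd99l2 (-0.66). They had higher Spp1 (2.61), Rap1b (0.93), Cd53 (1.33), Cd63 (0.92) and the docking protein Bcar1 (1.34, from 0.382 to 2.48 TPM). Bcar1 in DMSO was below the 1 TPM minimum and passed it only through the LPS-treated groups. Under median-ratio scaling Itga6, Gga3, Snx17 and Cd99l2 were no longer called.

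**Figure D4:**
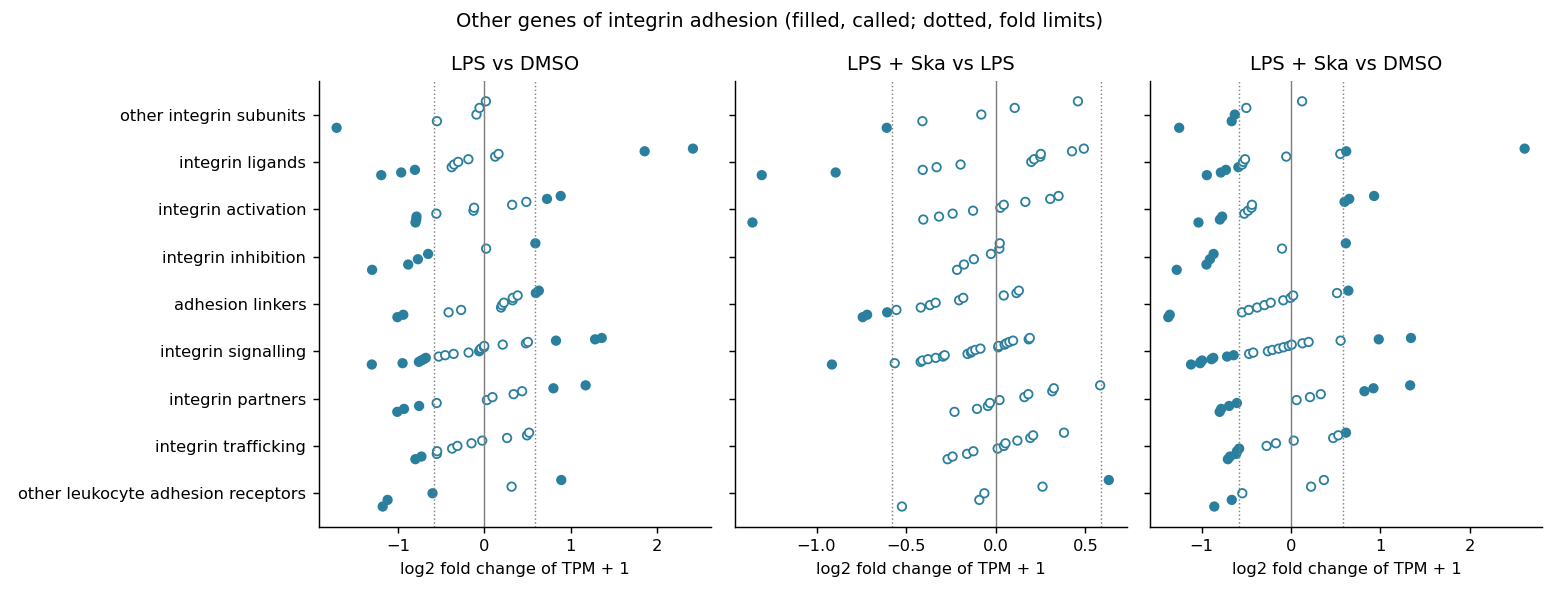
Log2 fold changes on the log2(TPM + 1) scale (horizontal axis) of the tested genes of each integrin-related list, by comparison; points are genes, filled where called, and dotted lines are the fold limits. In LPS + Ska against LPS 8 genes are called lower and 1 higher, and the others lie inside the limits.

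Itgax had the largest change of any member both in LPS against DMSO and in LPS + Ska against LPS. The tested genes whose log2(TPM + 1) ran closest to it over the 9 columns were Gcnt1 (Pearson r = 0.987), Rsg1 (0.986), Tef (0.986), Stx2 (0.983) and Gm7308 (0.980). The columns share 3 groups and 2 of those groups are tied, so r is a description of the group pattern. Mean levels in DMSO, LPS and LPS + Ska were 9.45, 2.99 and 5.06 TPM for Gcnt1, a glycosyltransferase that makes branched O-glycans, and 14.6, 6.49 and 10.4 TPM for the transcription factor Tef. As in Itgax, LPS was lowest and LPS + Ska lay between LPS and DMSO. That order follows from choosing these genes by their r.

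**Figure D5:**
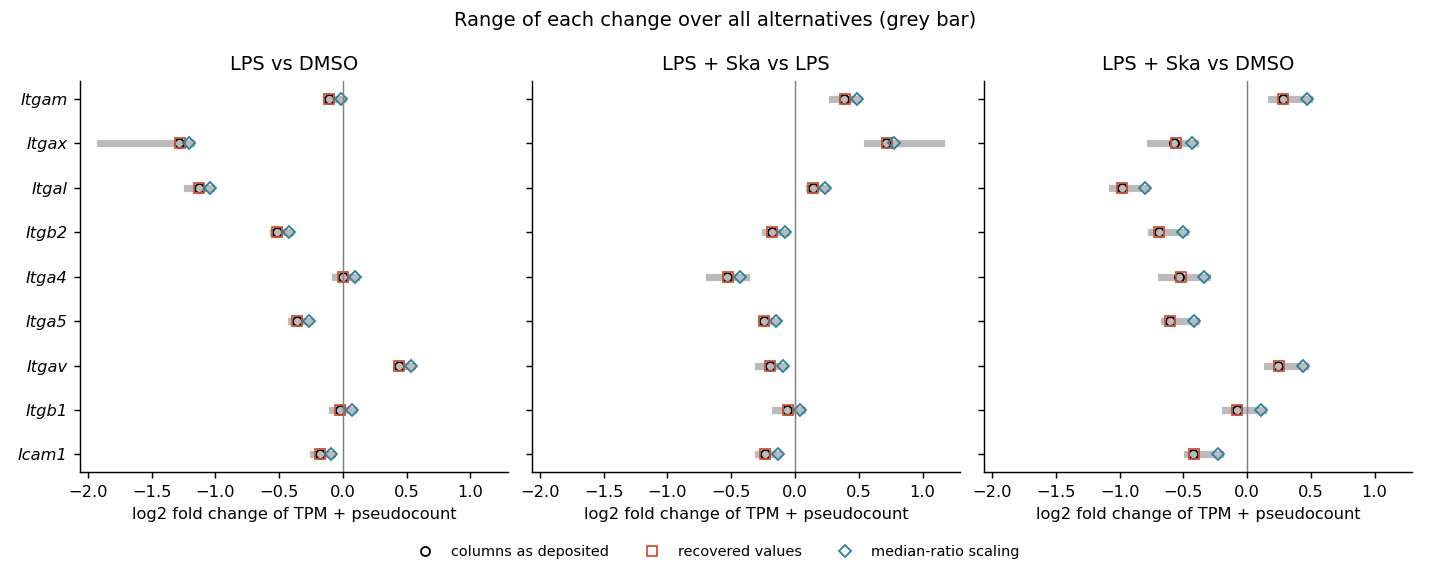
Log2 fold change of each tested member (horizontal axis) by comparison, with a grey bar for its range over all processing alternatives, circles for the columns as deposited, squares for recovered values and diamonds for median-ratio scaling. Itgb1 lies on both sides of 0 in all 3 comparisons, while Itgax in LPS + Ska against LPS runs from 0.56 to 1.14.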

How the data were processed

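RNA of 9 samples (DMSO, LPS and LPS + Ska, 3 each, grouped by their titles) was sequenced by the authors from NEBNext Ultra RNA libraries and deposited as TPM per Ensembl gene. The submitters' processing notes name fastp 0.20.1, HISAT2 2.2.1, StringTie 2.0 and mm10, without their roles. TPM keeps no depth, so no counting error is given, and no count model was used. The tied columns of the LPS and LPS + Ska groups are not explained in the sources used here. There the SD of the 3 columns equals the difference of the 2 recovered values unless a column was clipped at 0, as for Itgb3.

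Symbols matched 55141 of 55401 identifiers, and 0 columns were left unmapped. limma 3.58.1 in R 4.3.3 (lmFit, eBayes with trend) was fitted to log2(TPM + 1) with all 9 columns and no covariate, for the 12819 genes that averaged 1 TPM or more. It was tested on simulated data whose columns were not tied, so that test does not cover the tied groups. Plots and ratios used Python 3.11.15 and matplotlib 3.10.9. Alternatives were a pseudocount of 0.1, a mean TPM minimum of 5 or none, median-ratio scaling, recovered values (alone, and with median-ratio scaling, the latter chosen after seeing the data), adjusted p alone, a fit of the compared groups only, no intensity trend, a replicate block and leaving out each column.

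The members and lists were chosen with earlier results of these data known. The text names every member, each list gene called between LPS + Ska and LPS, and in the other comparisons the 2 called genes per list with the largest change among those with no overlap between the groups. For the member with the largest change it names the 5 genes most like it.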

Additional observations from a re-analysis of the deposited data

How the results depend on the processing

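Of the 57 alternative counts of called members, 46 stayed within 1.5 times the reported count. The share of all tested genes was counted only for the columns as deposited, recovered values, median-ratio scaling and adjusted p alone. In LPS against DMSO the count of 2 became 1 with a mean TPM minimum of 5, which leaves Itgax out of the test, and 5 with adjusted p alone, and leaving out a column gave 2 to 2. In LPS + Ska against LPS the count of 1 became 0 with that minimum, for the same reason, 5 with adjusted p alone, and 0 to 1 on leaving out a column. The 1 left without LPS + Ska replicate 6 was Itga4 in place of Itgax. In LPS + Ska against DMSO the count of 3 became 1 with median-ratio scaling of the columns or of recovered values, 8 with adjusted p alone, and 2 to 5 on leaving out a column, with 2 without DMSO replicate 7 and 5 without LPS + Ska replicate 6.

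For single members 471 values kept direction and side, 18 gained a call, 9 lost it and 12 changed sign. The sign changes were in values near 0 and never called, those of Itgb1 in each comparison and of Itga4 in LPS against DMSO. Itgb1 was at 0.0694 (median-ratio scaling) and 0.0767 (that scaling of recovered values) in LPS against DMSO. In the same order it was at 0.0420 and 0.0518 in LPS + Ska against LPS, and at 0.11 and 0.13 in LPS + Ska against DMSO. Recovered values alone kept its sign, at -0.0204, -0.0553 and -0.0758. Leaving out a column, Itgb1 ran from -0.0836 to 0.0592, from -0.16 to 0.0393 and from -0.18 to 0.0182. Itga4 in LPS against DMSO ran from -0.0597 to 0.0641. The cause of these changes was not tested.

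Same-numbered LPS and LPS + Ska columns deviated together (correlations 0.38, 0.15 and 0.13), the other 6 pairs not (-0.03 to 0.08), but tied columns are not 3 separate observations, so the numbers were not taken to pair samples. A fit with the replicate block gave 2, 1 and 3 called members, with the share of all tested genes not counted. In it the adjusted p of Icam1 in LPS against DMSO went from 0.0677 to 0.0229 and that of Itgav in LPS + Ska against DMSO from 0.0401 to 0.0690 (limma), while no other member crossed 0.05. Itga5 and Icam1 in LPS + Ska against LPS stood at 0.0488 and 0.0203. The depth is unknown, so counting error is not given for any member.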
